A study of Homo sapiens with 12 samples.

Results

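Transcripts of 10 histone lysine methyltransferase genes other than DOT1L were followed through DOT1L inhibition. The genes are SETD2, NSD1, NSD2, NSD3, EZH1, EZH2, EHMT1, EHMT2, SETDB1 and SMYD3, taken by symbol from 57783 genes in the deposited count table. Each symbol matched 1 Ensembl identifier, and all 10 were among the 16327 genes with enough counts to be tested. The question was whether these transcripts adjust when DOT1L is inhibited.

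RNA was sequenced from MDA-MB-468, an established line of triple-negative breast cancer, in 12 libraries. EPZ5676 (pinometostat), a small molecule that inhibits DOT1L, had been given at 0.5 µM for 10 days, and the solvent DMSO for the same time served as the control. Cells were then sorted by ALDH1, a detoxifying enzyme activity by which stem-like cells of breast tumours are commonly enriched. This gave EPZ5676 ALDH1+, EPZ5676 ALDH1-, DMSO ALDH1+ and DMSO ALDH1- cells, with 3 libraries each, which the labels call biological replicates. Sample titles call the control libraries DMSO treated, while the column headers of the count table call them untreated. Every group comes from the same line, which is a model of 1 tumour. Sorting was by enzyme activity, and the labels give no purity.

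Total counts lay between 24348594 and 28230029 in 8 libraries, at 29310374 and 29368821 in 2 more, and at 80195050 in EPZ5676 ALDH1+ replicate 2 and 58004508 in DMSO ALDH1+ replicate 3. The epithelial genes KRT19 and EPCAM were read at 1940 to 2934 CPM and 520 to 781 CPM, while the progesterone receptor gene PGR had at most 1 read in any library. ESR1 and ERBB2, the other receptor genes by which such tumours are classed, averaged 7.98 and 37.6 CPM under EPZ5676 and 9.33 and 61.6 CPM in DMSO, and both fell. The T cell gene CD3E had at most 1 read in any library. CPM are reads per 1000000 after TMM scaling of the library totals. Of 7 markers of other cell types 6 were in the table and their levels summed to 33.2 to 34.5 CPM in EPZ5676 ALDH1+ and 29.3 to 37.0 CPM in EPZ5676 ALDH1-, against 17.3 to 22.4 CPM in DMSO ALDH1+ and 19.1 to 24.6 CPM in DMSO ALDH1-. Of the 4 that were tested, COL1A1, CSF1R and PTPRC rose and CD14 fell under EPZ5676 averaged over both populations. Of 6 epithelial markers 4 fell and 1, EGFR, rose in the same average, where 20% of all genes tested fell and 21.9% rose. In ALDH1+ cells alone 4 of the 6 fell and 1 rose, where 13.7% of all genes fell and 17.8% rose. In ALDH1- cells alone 1 fell and 0 rose, where 9.04% of all genes fell and 13.6% rose. What part these markers have in the results below was not tested.

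Histone lysine methyltransferases place methyl groups on single lysines of histones. DOT1L, which methylates H3K79 in the nucleosome core, lacks the SET domain that most of this class share. All 10 genes here code for SET domain enzymes. EZH1 and EZH2 are alternative catalytic subunits of Polycomb repressive complex PRC2, which methylates H3K27. EHMT1 (GLP) and EHMT2 (G9a) form a heteromer that mono- and dimethylates H3K9, and SETDB1 trimethylates H3K9 at silenced repeats and genes. NSD1, NSD2 and NSD3 dimethylate H3K36, and SETD2 adds the trimethyl mark at H3K36 behind elongating RNA polymerase II. SMYD3 is a SET and MYND domain enzyme that also methylates proteins outside chromatin, such as the kinase MAP3K2.

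The promoters of the 4 genes whose levels parted EPZ5676 from DMSO in every library are shown, since 3 of them fell and 1 rose. The windows are the 250 bases before the first start that RefSeq lists for the gene, on build GRCh38.p14, read 5′ to 3′ on the gene's strand. They are chr1:246507280-246507529 (minus strand), chr7:148884292-148884541 (minus strand), chr6:31897699-31897948 (minus strand) and chr1:150926013-150926262 (plus strand). Capitals mark matches on either strand to CCAAT, to the GC box GGGCGG, to the E2F cores GCGGGAA and GCGCCAA, or to the ETS core CCGGAAG.
SMYD3: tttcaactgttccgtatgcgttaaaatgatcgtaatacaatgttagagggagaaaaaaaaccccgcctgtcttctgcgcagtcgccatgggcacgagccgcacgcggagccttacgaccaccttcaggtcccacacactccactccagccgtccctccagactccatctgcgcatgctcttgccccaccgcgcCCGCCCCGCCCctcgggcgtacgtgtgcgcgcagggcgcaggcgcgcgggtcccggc
EZH2: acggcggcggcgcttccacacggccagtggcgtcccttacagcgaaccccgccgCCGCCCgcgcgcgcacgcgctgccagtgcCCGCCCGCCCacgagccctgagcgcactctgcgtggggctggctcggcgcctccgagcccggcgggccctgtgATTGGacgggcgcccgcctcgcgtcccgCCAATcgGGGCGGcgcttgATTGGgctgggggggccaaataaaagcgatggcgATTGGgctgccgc
EHMT2: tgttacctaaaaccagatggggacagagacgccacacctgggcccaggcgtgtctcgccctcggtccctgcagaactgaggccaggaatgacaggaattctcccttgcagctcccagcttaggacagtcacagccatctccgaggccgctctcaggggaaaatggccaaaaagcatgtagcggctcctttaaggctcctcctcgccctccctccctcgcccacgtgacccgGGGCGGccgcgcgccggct
SETDB1: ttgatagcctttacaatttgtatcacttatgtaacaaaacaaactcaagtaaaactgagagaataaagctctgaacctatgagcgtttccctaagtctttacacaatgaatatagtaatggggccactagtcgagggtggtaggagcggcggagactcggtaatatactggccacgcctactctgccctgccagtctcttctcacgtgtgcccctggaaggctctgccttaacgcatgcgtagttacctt
The EZH2 window held 4 CCAAT matches and 4 GC boxes, of which 2 share bases, in a sequence of 75.6% G and C. The SMYD3 window held 2 GC boxes that share a base, the EHMT2 window held 1 GC box, and the SETDB1 window held 0 of the 5 motifs. Among 35116 promoter windows of this length, 32% held CCAAT, 42.6% the GC box, 5.52% and 2.56% the E2F cores, and 8.52% the ETS core. RefSeq lists a second start for EZH2, SMYD3 and SETDB1, whose windows read differently. That of EZH2 held 1 GC box and no other motif, that of SMYD3 held 5 CCAAT matches and no GC box, and that of SETDB1 held 1 ETS core. Windows were taken for 9 of the 10 genes, and NSD3 was left out of the search. A match describes the letters only, and the counts do not tell which start was used.

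**Figure D1:**
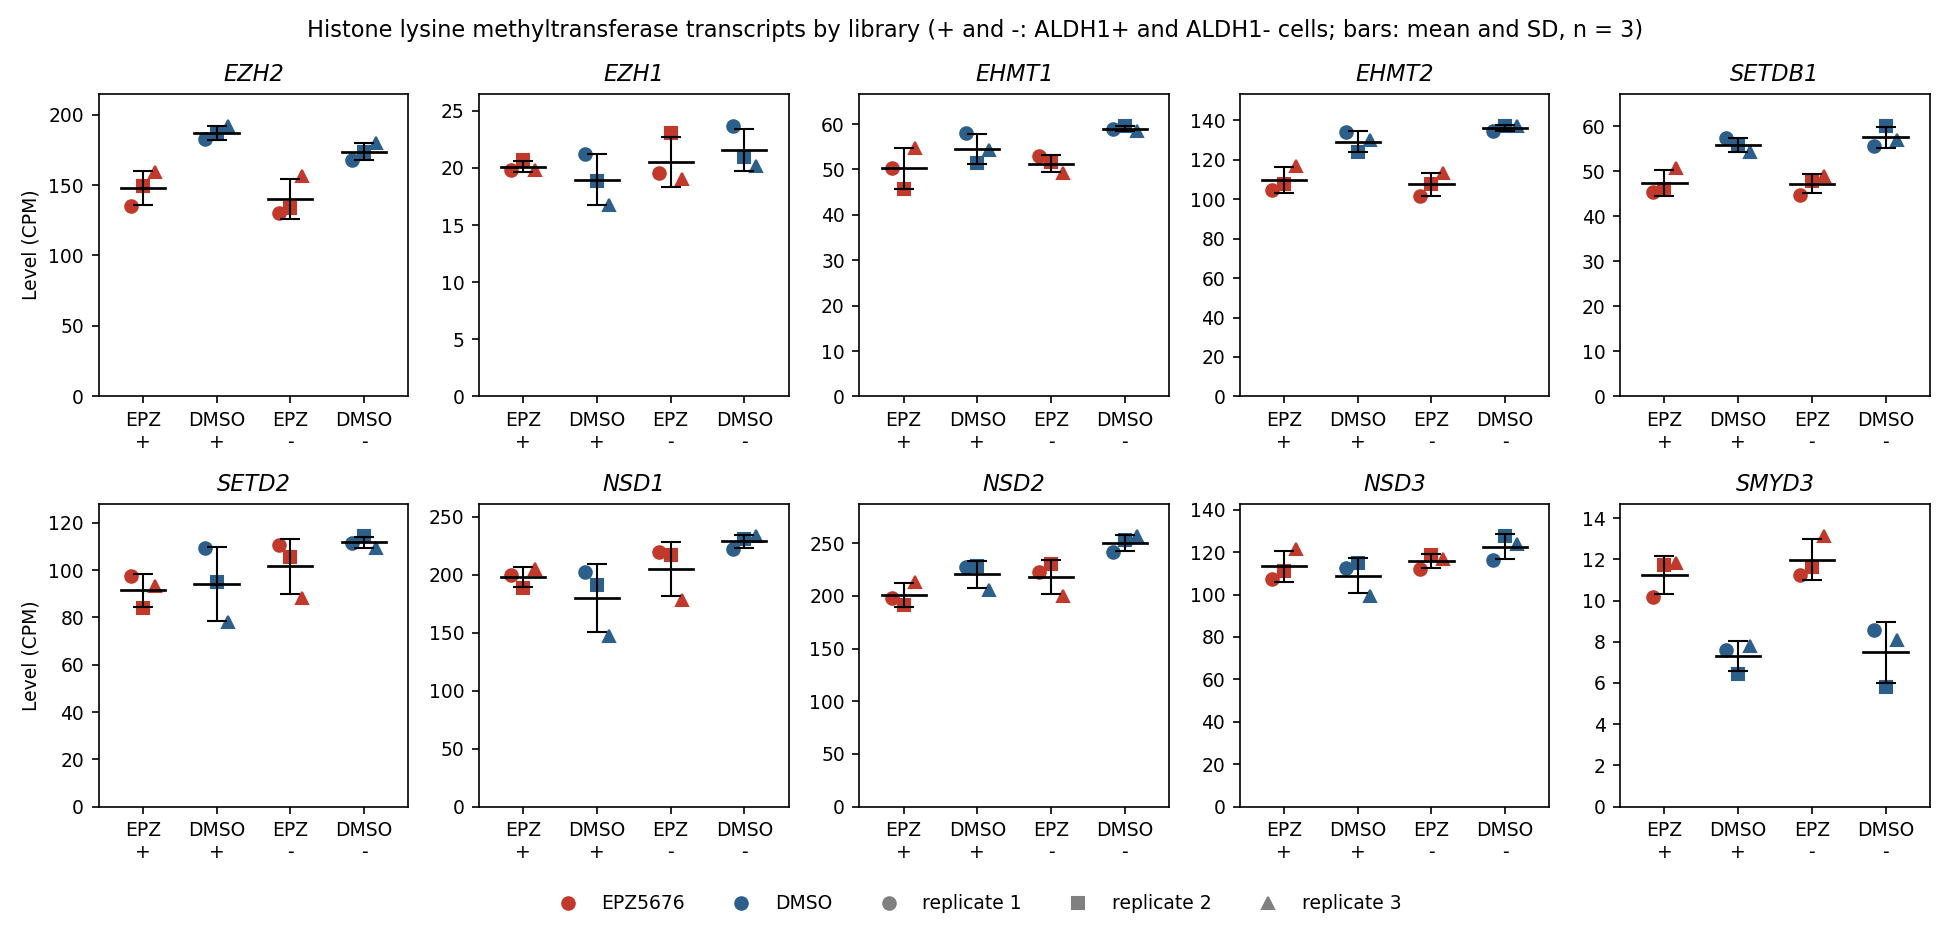
Level in CPM (y axis, from 0) of each transcript in each of the 12 libraries, by group (x axis), with the mean and SD of 3 libraries as bars and symbols for the replicate number. EZH2, EHMT2 and SETDB1 are lower and SMYD3 is higher in all 6 EPZ5676 libraries than in all 6 DMSO libraries.

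Under EPZ5676, 1 of the 10 genes rose and 3 fell in each population. SMYD3 rose by 53.8% in ALDH1+ and 60.4% in ALDH1- cells, while EZH2, EHMT2 and SETDB1 fell by 15% to 21.1%. NSD2 and EHMT1 fell by 11.1% and 10.6% in the treatment effect averaged over both populations, and passed in neither alone. SETD2, NSD1, NSD3 and EZH1 did not pass the test. Calls used a threshold of 0.05 on p from edgeR's quasi-likelihood test, adjusted by Benjamini and Hochberg over all 16327 genes. In ALDH1+ cells 31.5% of all genes tested were called, 17.8% higher and 13.7% lower, so 4 of 10 is near that background. In ALDH1- cells 22.6% of all genes were called, 13.6% higher and 9.04% lower. Averaged over both populations 6 of the 10 were called, 1 higher and 5 lower, against 41.9% of all genes, 21.9% higher and 20% lower.

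**Figure D2:**
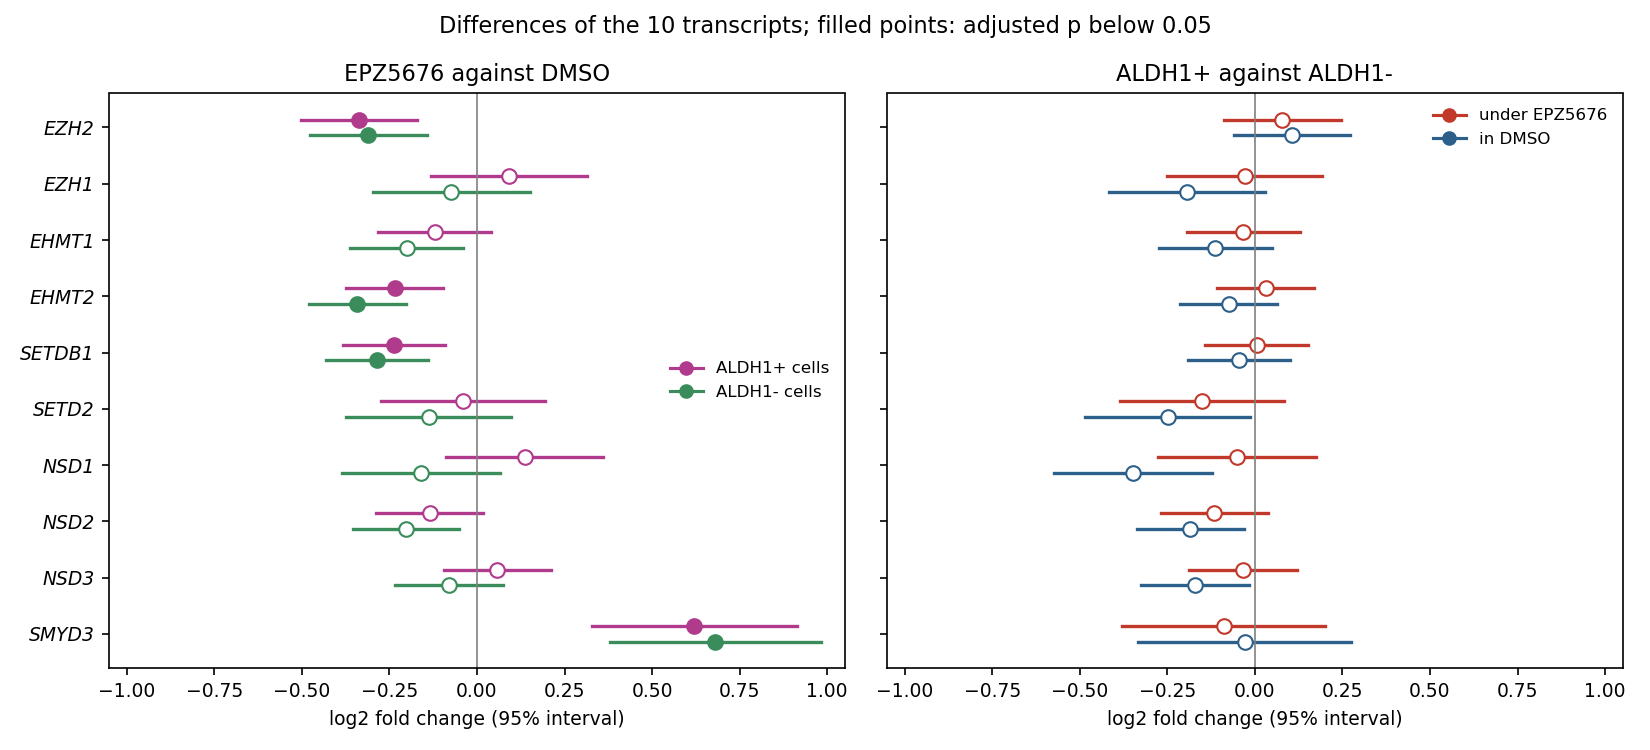
Left, log2 fold change of EPZ5676 against DMSO in ALDH1+ and ALDH1- cells. Right, log2 fold change of ALDH1+ against ALDH1- under EPZ5676 and in DMSO. Lines are 95% intervals and filled points passed an adjusted p of 0.05. On the left only SMYD3, EZH2, EHMT2 and SETDB1 have filled points, and on the right none has.

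SMYD3 was the one gene of the 10 that rose. It was read at 10.2, 11.7 and 11.8 CPM in EPZ5676 ALDH1+, against 7.60, 6.45 and 7.81 CPM in DMSO ALDH1+. In ALDH1- cells it was read at 11.2, 11.6 and 13.1 CPM under EPZ5676, against 8.58, 5.82 and 8.06 CPM in DMSO. The lowest EPZ5676 library therefore lay above the highest DMSO library across both populations. The log2 fold change was 0.62 in ALDH1+ cells (SE 0.14, edgeR adjusted p = 0.00311) and 0.68 in ALDH1- cells (SE 0.14, edgeR adjusted p = 0.00259). Averaged over both populations it was 0.65 (SE 0.10, edgeR adjusted p = 8.82e-05), which ranks 2321 of 16327 by size. All 6 differences between same-numbered libraries were positive, from 0.39 to 0.99 in log2 CPM, and replicate number 2 gave the widest in both populations. SMYD3 is a gene of moderate counts here, 162 to 935 reads per library. The 6 annotated genes that overlap it held at most 14 reads in any library, the most in the intronic transcript SMYD3-IT1.

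EZH2, the PRC2 catalytic subunit of dividing cells, fell in both populations. The level was 135, 149 and 159 CPM in EPZ5676 ALDH1+, against 182, 186 and 192 CPM in DMSO ALDH1+. ALDH1- cells gave 130.3, 134 and 156 CPM under EPZ5676, against 168, 173 and 179.7 CPM in DMSO. The groups did not overlap in either population, and replicate 3 was the highest library of every group. The log2 fold change was -0.34 in ALDH1+ cells (SE 0.08, edgeR adjusted p = 0.00422) and -0.31 in ALDH1- cells (SE 0.08, edgeR adjusted p = 0.00991). In ALDH1- cells the call was lost without EPZ5676 replicate 1 (-0.25, edgeR adjusted p = 0.0602) or without EPZ5676 replicate 2 (-0.28, edgeR adjusted p = 0.0548).

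EZH1, the PRC2 catalytic subunit also found in resting cells, did not pass the test. Its level was 19.8, 20.7 and 19.9 CPM in EPZ5676 ALDH1+, against 21.2, 18.8 and 16.8 CPM in DMSO ALDH1+. The ALDH1- libraries had 19.5, 23.0 and 19.0 CPM under EPZ5676, against 23.7, 21.0 and 20.2 CPM in DMSO. The groups overlapped in both populations. Its log2 fold change was 0.09 in ALDH1+ and -0.07 in ALDH1- cells. Averaged over both it was 0.01 with a 95% interval from -0.15 to 0.17 (edgeR adjusted p = 0.935), and 3 of 6 same-numbered differences were positive. The interval of EZH2 in the same comparison ran from -0.44 to -0.21, so the intervals of these PRC2 subunits do not meet, though the difference between both genes was not tested.

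The other PRC2 genes varied. Of 12 listed subunits 11 were in the table and 10 were tested. Averaged over both populations 2 fell and 0 rose, where 20% of all genes fell and 21.9% rose. The median log2 fold change was -0.05, against -0.02 over all genes tested. The genes that fell code for the histone binding proteins RBBP4 (-0.30, SE 0.05, edgeR adjusted p = 3.83e-04) and RBBP7 (-0.14, SE 0.05, edgeR adjusted p = 0.0316), which also belong to other chromatin complexes. The core subunit SUZ12 had a log2 fold change of -0.12 (edgeR adjusted p = 0.0932), and the DNA-targeting cofactor JARID2 one of 0.14 (edgeR adjusted p = 0.066). In ALDH1+ cells alone 1 of the tested subunits fell and 1 rose, where 13.7% of all genes fell and 17.8% rose. In ALDH1- cells alone 1 fell and 0 rose, where 9.04% of all genes fell and 13.6% rose.

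Of 22 replication genes 12 fell and 0 rose under EPZ5676 averaged over both populations, where 20% of all genes fell and 21.9% rose. Their median was -0.23 on the log2 scale. Their summed level was 3385, 3669 and 4462 CPM in EPZ5676 ALDH1+, against 4582, 4615 and 4913 CPM in DMSO ALDH1+. In ALDH1- cells it was 3091, 3275 and 4207 CPM under EPZ5676, against 3870, 4180 and 4411 CPM in DMSO, so that groups overlapped there. The library numbered 3 was again the highest of each group. What part the cell cycle has in the level of EZH2 was not tested. In bulk RNA, fewer cells with a transcript and less of it per cell cannot be told apart.

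EHMT2 fell in both populations. Its libraries gave 105, 108 and 117 CPM in EPZ5676 ALDH1+, against 134, 124 and 129.8 CPM in DMSO ALDH1+. In the ALDH1- population its level was 102, 108 and 113 CPM under EPZ5676, against 134, 137 and 137 CPM in DMSO. No EPZ5676 library reached the lowest DMSO library. The log2 fold change was -0.24 in ALDH1+ cells (SE 0.07, edgeR adjusted p = 0.0123) and -0.34 in ALDH1- cells (SE 0.07, edgeR adjusted p = 0.00142). In ALDH1+ cells the call was lost without EPZ5676 replicate 1 (-0.20, edgeR adjusted p = 0.0639), and edgeR's adjusted p was 0.052 when the ALDH1+ libraries were fitted alone and 0.0843 without the 2 most deeply sequenced libraries. The antisense gene EHMT2-AS1 held at most 1 read.

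EHMT1, its partner, lay lower by a smaller margin. It was read at 50.4, 45.6 and 54.7 CPM in EPZ5676 ALDH1+, against 58.0, 51.5 and 54.2 CPM in DMSO ALDH1+. In ALDH1- cells it was read at 53.0, 51.6 and 49.2 CPM under EPZ5676, against 58.8, 59.6 and 58.5 CPM in DMSO. The groups overlapped in ALDH1+ but not in ALDH1- cells. The log2 fold change was -0.12 in ALDH1+ (edgeR adjusted p = 0.242) and -0.20 in ALDH1- (edgeR adjusted p = 0.0716, and 0.0336 with the replicate number as a block). The averaged effect was -0.16 (SE 0.05, edgeR adjusted p = 0.0247), and this call was lost in 7 of 21 alternative fits, at an adjusted p of up to 0.0768. Among these were the fits without DMSO ALDH1+ replicate 1 (0.0565), DMSO ALDH1- replicate 2 (0.0559), EPZ5676 ALDH1+ replicate 2 (0.0736) and EPZ5676 ALDH1- replicate 3 (0.0562).

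SETDB1 fell in both populations and had nearly the profile of EHMT2. The level was 45.5, 46.1 and 50.7 CPM in EPZ5676 ALDH1+, against 57.4, 55.7 and 54.4 CPM in DMSO ALDH1+. ALDH1- cells gave 44.8, 47.9 and 48.9 CPM under EPZ5676, against 55.5, 60.1 and 57.0 CPM in DMSO. All 6 EPZ5676 libraries lay below all 6 DMSO libraries. The log2 fold change was -0.24 in ALDH1+ cells (SE 0.07, edgeR adjusted p = 0.0158) and -0.29 in ALDH1- cells (SE 0.07, edgeR adjusted p = 0.00744). In ALDH1+ cells the call was lost without EPZ5676 replicate 1 (edgeR adjusted p = 0.0695), without EPZ5676 replicate 2 (0.0622), with no filter on low counts (0.0604), with the ALDH1+ libraries alone (0.0582) and without the 2 most deeply sequenced libraries (0.0754). SETDB1 overlaps the ceramide synthase gene CERS2, which lies on the opposite strand and held 7452 to 23944 reads, and the strand setting of the counting is not known from the labels.

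Of 12 partners and readers of the H3K9 enzymes 1 fell and 0 rose averaged over both populations, where 20% of all genes fell and 21.9% rose, and the median was -0.03 on the log2 scale. The gene that fell was ATF7IP, the nuclear partner of SETDB1, at 69.1 ± 5.6 CPM under EPZ5676 and 83.4 ± 8.0 CPM in DMSO (SD, n = 6 each; log2 fold change -0.27, SE 0.06, edgeR adjusted p = 0.0031). The corepressor TRIM28, which brings SETDB1 to repeats, had a log2 fold change of -0.12 (edgeR adjusted p = 0.0731), and the HP1 genes CBX5 and CBX3 had -0.18 and -0.16 (edgeR adjusted p = 0.0621 and 0.0747).

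Of the H3K36 enzymes, NSD2 had the clearest difference. Its libraries gave 198, 191 and 213 CPM in EPZ5676 ALDH1+, against 228, 228 and 206 CPM in DMSO ALDH1+. The ALDH1- libraries had 222.5, 231 and 199.7 CPM under EPZ5676, against 242, 253 and 257 CPM in DMSO. The groups overlapped in ALDH1+ but not in ALDH1- cells. The log2 fold change was -0.13 in ALDH1+ (edgeR adjusted p = 0.167) and -0.20 in ALDH1- (edgeR adjusted p = 0.0538, and 0.0296 with the replicate number as a block). NSD2 was also called in ALDH1- without DMSO ALDH1+ replicate 3 (edgeR adjusted p = 0.0407) or EPZ5676 ALDH1+ replicate 3 (0.0468). It was called there without the 2 most deeply sequenced libraries too (edgeR adjusted p = 0.035), and in ALDH1+ without all 4 libraries numbered 3 (-0.23, edgeR adjusted p = 0.0184). Averaged over both populations it was -0.17 (SE 0.05, edgeR adjusted p = 0.0142), and this call held in all 21 alternative fits.

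NSD1 did not pass in either population. It was read at 200.1, 188.5 and 205 CPM in EPZ5676 ALDH1+, against 203, 191 and 147 CPM in DMSO ALDH1+. In the ALDH1- population its level was 219, 217.5 and 178 CPM under EPZ5676, against 223, 231 and 233 CPM in DMSO. The lowest ALDH1+ library was DMSO replicate 3 and the lowest ALDH1- library was EPZ5676 replicate 3. The groups overlapped in ALDH1+ but not in ALDH1- cells. The log2 fold changes were 0.14 in ALDH1+ (95% interval -0.09 to 0.36) and -0.16 in ALDH1- (-0.39 to 0.07), and the averaged effect was -0.01 (-0.17 to 0.15, edgeR adjusted p = 0.916). Without the 4 libraries numbered 3 the ALDH1+ value was -0.02.

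NSD3 was read at 107.5, 111 and 121.5 CPM in EPZ5676 ALDH1+, against 112, 115 and 99.4 CPM in DMSO ALDH1+. In ALDH1- cells it was read at 112, 118.5 and 117 CPM under EPZ5676, against 116, 127.5 and 124 CPM in DMSO. Groups overlapped in both populations. Its log2 fold change was 0.06 in ALDH1+ and -0.08 in ALDH1- cells, and -0.01 averaged over both (95% interval -0.12 to 0.10, edgeR adjusted p = 0.883). NSD3 shares part of its locus with DDHD2, which lies on the opposite strand and held 1788 to 5887 reads.

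SETD2, the trimethylating enzyme, was read at 97.5, 83.8 and 93.2 CPM in EPZ5676 ALDH1+, against 109, 94.8 and 78.2 CPM in DMSO ALDH1+. ALDH1- cells gave 111, 106 and 88.2 CPM under EPZ5676, against 111, 114 and 109.5 CPM in DMSO. Both populations had overlapping groups. Its log2 fold change was -0.04 in ALDH1+ and -0.14 in ALDH1- cells, and -0.09 averaged over both (95% interval -0.26 to 0.08, edgeR adjusted p = 0.387).

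**Figure D3:**
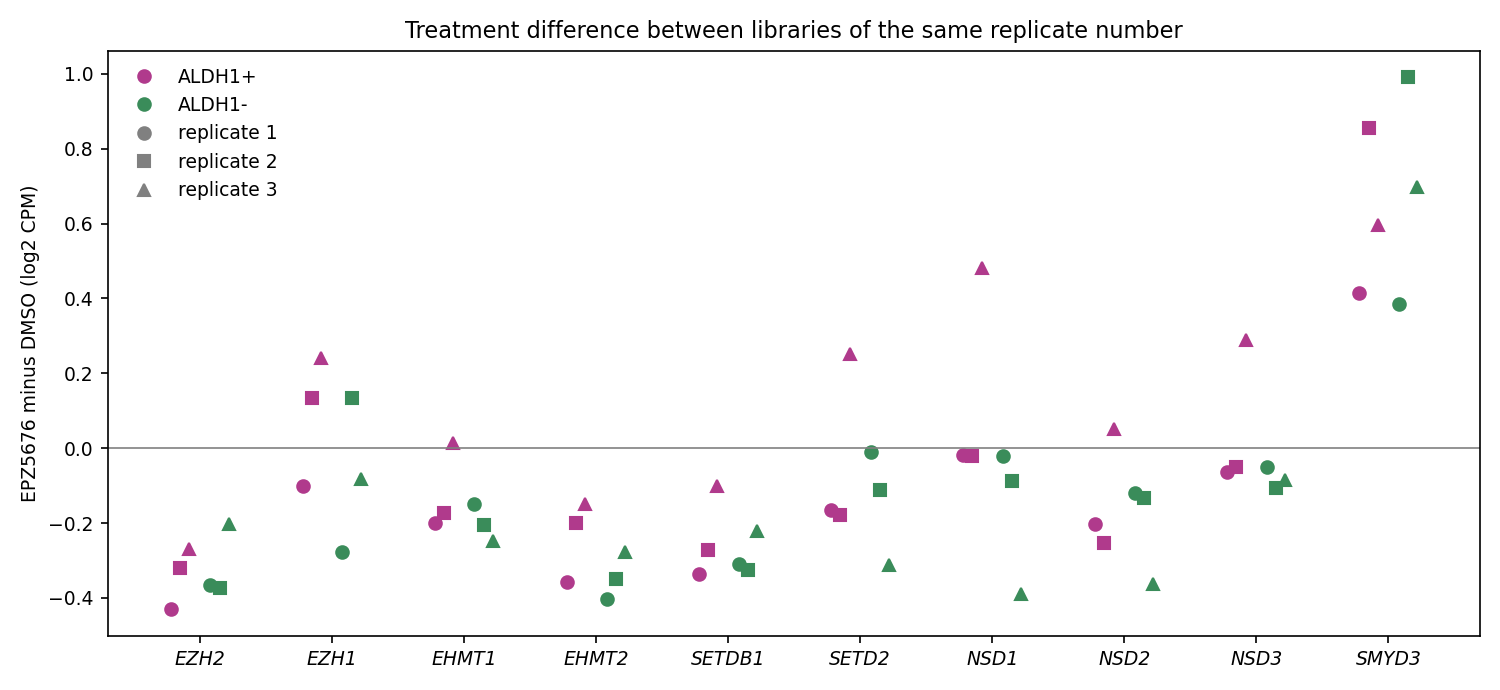
Difference of log2 CPM between the EPZ5676 and the DMSO library of the same replicate number (y axis) for each transcript (x axis), with colour for the population and symbol for the number. EZH2, EHMT2 and SETDB1 are below 0 and SMYD3 is above 0 in all 6, while SETD2, NSD1, NSD2, NSD3, EZH1 and EHMT1 have replicate 3 above 0 in ALDH1+ and below 0 in ALDH1- cells.

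In some libraries long transcripts stood apart. SETD2, NSD1, NSD2, NSD3 and EHMT1 were all in the longest of 5 equal length classes, from 8579 bases of exon upward in the GENCODE 29 annotation. In that class, the median deviation from the group mean was -0.08 in log2 CPM in DMSO ALDH1+ replicate 3 and -0.06 in EPZ5676 ALDH1- replicate 3. In the shortest class it was 0.10 and 0.05 in the same libraries. The longest class minus the shortest was -0.18 and -0.11 in these libraries and -0.09 in EPZ5676 ALDH1+ replicate 2. It was 0.14 in DMSO ALDH1+ replicate 1, and the remaining libraries lay between -0.06 and 0.06. Counted from the shortest, EZH2 was in class 2, SMYD3 in class 3, and EHMT2, SETDB1 and EZH1 in class 4. What part transcript length has in the values of the NSD genes and SETD2 was not tested.

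The 4 genes that passed in each population are also those whose 6 EPZ5676 and 6 DMSO libraries did not overlap, against 21.4% of all genes tested. They are the 4 whose 6 same-numbered differences had one sign, against 40.8% of all genes. In ALDH1+ cells the groups of 3 libraries did not overlap in 4 of the 10 genes, against 41.4% of all genes, and in ALDH1- cells in 7 of 10, against 39.1%. Averaged over both populations the 10 genes had a median of -0.13 on the log2 scale, against -0.02 over all genes, and the median size was 0.17, against 0.19.

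Whether the treatment effect differed between the populations was asked with the interaction term of the same fit. None of the 10 genes was called by edgeR, and neither was any of the 16327 genes (0%). At an unadjusted p below 0.05 there were 0 of the 10 and 597 of all genes (3.66%), and DESeq2 and limma-voom also called 0 genes. NSD1 had the widest interaction among the 10, at 0.30 (95% interval -0.02 to 0.61, edgeR adjusted p = 0.979). For EZH2, EHMT2, SETDB1 and SMYD3 the interactions were -0.03 (-0.26 to 0.21), 0.11 (-0.09 to 0.30), 0.05 (-0.16 to 0.26) and -0.06 (-0.48 to 0.36).

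ALDH1+ and ALDH1- cells were compared within each treatment. Under EPZ5676 none of the 10 genes was called by edgeR, against 0.0184% of all genes. The groups overlapped in all 10, while 9.57% of all genes had groups that did not. At an unadjusted p below 0.05 there were 0 of the 10 under EPZ5676, against 6.32% of all genes. DESeq2 called 0 of the 10, against 0.163% of the 15377 genes it tested, and limma-voom 0 of the 10, against 0.0184%. The largest difference by size was that of SETD2, at -0.15 (95% interval -0.39 to 0.08, edgeR adjusted p = 0.868).

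In DMSO 9 of the 10 genes had lower levels in ALDH1+ than in ALDH1- cells, against 51.6% of all genes. None was called by edgeR, against 0% of all genes. At an unadjusted p below 0.05 there were 4 of the 10, against 17.8% of all genes. Those 4 were the H3K36 enzymes. DESeq2 called 0 of the 10, against 2.44% of the 11579 genes it tested, and limma-voom 0 of the 10, against 0%. NSD1 averaged 180.2 ± 29.5 CPM in DMSO ALDH1+ and 229 ± 5.7 CPM in DMSO ALDH1- cells (SD, n = 3 each; log2 fold change -0.35, SE 0.11, edgeR adjusted p = 0.171). With the replicate number as a block NSD1 was the 1 of the 10 called (-0.36, edgeR adjusted p = 0.0271), where 8.48% of all genes were. With no filter on low counts it was again the 1 called (-0.33, edgeR adjusted p = 0.00429), where 2.84% of all genes were. Without DMSO ALDH1+ replicate 3 its difference was -0.21 (edgeR adjusted p = 0.609). SETD2, NSD2 and NSD3 had log2 fold changes of -0.25, -0.18 and -0.17 (edgeR adjusted p = 0.258, 0.215 and 0.24). EZH2 was the exception to the direction, with a log2 fold change of 0.11 (edgeR adjusted p = 0.495). The groups did not overlap in 7 of the 10 genes, against 23.1% of all genes. DMSO ALDH1+ replicates 3 and 1, the libraries in which long transcripts were lowest and highest, are both in this comparison.

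Levels between genes were compared per kilobase of annotated exon, by the range over the 6 libraries of a treatment. EZH2 was the highest, at 28.8 to 35.2 CPM per kilobase under EPZ5676 and 37.1 to 42.4 in DMSO. EHMT2 had the next highest mean, at 13.9 to 16.1 under EPZ5676 and 17 to 18.8 in DMSO, and its range met that of NSD1 under EPZ5676 but not in DMSO. NSD1, NSD2 and SETD2 followed. Under EPZ5676 they were at 11.5 to 14.2, 9.67 to 11.7 and 8.3 to 11 CPM per kilobase. There NSD2 overlapped NSD1 and SETD2, whose ranges did not meet. In DMSO they were at 9.48 to 15.1, 10.4 to 13 and 7.75 to 11.3, with overlapping ranges. NSD3, at 7.05 to 7.96 under EPZ5676 and 6.52 to 8.36 in DMSO, overlapped SETDB1, at 6.32 to 7.14 under EPZ5676 and 7.67 to 8.47 in DMSO, and in DMSO both overlapped SETD2. EZH1 and EHMT1 were lower, at 2.72 to 3.29 and 2.05 to 2.46 CPM per kilobase under EPZ5676 and 2.4 to 3.39 and 2.32 to 2.68 in DMSO, where they overlapped. SMYD3 had the lowest mean in both treatments, at 1.73 to 2.24 under EPZ5676, where it overlapped EHMT1, and 0.991 to 1.46 in DMSO, where it did not. Exon length was the union of all exons in GENCODE 29, from 4522 bases in EZH2 to 22217 in EHMT1, and may count exons that these cells do not use.

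DOT1L itself, the target of the drug, was read at 62.0 to 64.0 CPM in EPZ5676 ALDH1+ and 57.7 to 73.0 CPM in EPZ5676 ALDH1-, against 60.8 to 75.7 CPM in DMSO ALDH1+ and 75.8 to 85.3 CPM in DMSO ALDH1-. It passed in neither population in the main fit. Its log2 fold changes were -0.11 in ALDH1+ (edgeR adjusted p = 0.413) and -0.25 in ALDH1- (edgeR adjusted p = 0.0794). With the replicate number as a block it was called in ALDH1- (-0.25, edgeR adjusted p = 0.0142). Averaged over both populations the main fit called it at -0.18 (SE 0.07, edgeR adjusted p = 0.0454). This call was lost in 12 of 21 alternative fits, at an adjusted p of up to 0.122. With the replicate number as a block the call held, at an edgeR adjusted p of 0.00786. Among the fits that left out 1 library it held only without DMSO ALDH1+ replicate 3 (0.0151), DMSO ALDH1- replicate 1 (0.0475) or EPZ5676 ALDH1- replicate 2 (0.0297). DOT1L overlaps AP3D1 and PLEKHJ1 on the opposite strand.

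Of 29 other SET domain genes 24 were tested, of which 6 fell and 1 rose averaged over both populations, where 20% of all genes fell and 21.9% rose. The list median was -0.08 on the log2 scale, against -0.02 over all genes. The gene that rose was SETDB2, a relative of SETDB1 that acts on H3K9. The level was 13.8, 14.9 and 12.4 CPM in EPZ5676 ALDH1+ and 15.1, 16.1 and 13.3 CPM in EPZ5676 ALDH1-, against 9.86, 10.9 and 10.4 CPM in DMSO ALDH1+ and 11.99, 10.6 and 11.8 CPM in DMSO ALDH1-. All 6 EPZ5676 libraries lay above the DMSO libraries, and the averaged log2 fold change was 0.39 (SE 0.07, edgeR adjusted p = 6.37e-04), while SETDB1 fell in the same comparison. KMT2C, an H3K4 monomethyltransferase of enhancers, fell by 0.37 on the log2 scale (SE 0.06, edgeR adjusted p = 3.04e-04). SUV39H1, which trimethylates H3K9 in heterochromatin, fell by 0.38 (SE 0.07, edgeR adjusted p = 8.65e-04), and SETD6, which methylates the NF-kB subunit RELA, by 0.25 (SE 0.05, edgeR adjusted p = 8.45e-04).

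Of 22 histone lysine demethylases 21 were tested, of which 4 fell and 0 rose averaged over both populations, where 20% of all genes fell and 21.9% rose. Their median was -0.05, against -0.02 over all genes, so the count that fell is near the background. The demethylase KDM1A (LSD1), which acts on mono- and dimethylated H3K4, was read at 186, 182 and 199.7 CPM in EPZ5676 ALDH1+ and at 197, 187 and 195 CPM in EPZ5676 ALDH1-. In DMSO it was read at 244, 241 and 239.7 CPM in ALDH1+ and at 241, 240.1 and 240.1 CPM in ALDH1- cells. The DMSO libraries lay within a few CPM of each other and all EPZ5676 libraries lay below them, with an averaged log2 fold change of -0.34 (SE 0.04, edgeR adjusted p = 9.55e-06). KDM5B, KDM2B and PHF8 also fell, by 0.31, 0.20 and 0.21 on the log2 scale (edgeR adjusted p = 0.00243, 0.00849 and 0.0124).

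Of 12 partners of SETD2 and readers of H3K36 methylation 11 were tested, of which 3 fell and 0 rose averaged over both populations, where 20% of all genes fell and 21.9% rose. DNMT3B, a DNA methyltransferase that binds methylated H3K36, averaged 9.49 ± 1.6 CPM under EPZ5676 and 14.5 ± 1.5 CPM in DMSO (SD, n = 6 libraries each, 3 of each population). Its log2 fold change was -0.62 (SE 0.11, edgeR adjusted p = 3.41e-04). POLR2A, the largest subunit of RNA polymerase II, to which SETD2 binds, fell by 0.35 (SE 0.07, edgeR adjusted p = 0.00151), and the reader PSIP1 (LEDGF) by 0.32 (SE 0.09, edgeR adjusted p = 0.0115). Of 9 arginine methyltransferases 8 were tested, of which 4 fell and 1 rose in the same comparison, with a median of -0.15. Those that fell include PRMT1, which makes most asymmetric dimethylarginine, at -0.22 (SE 0.06, edgeR adjusted p = 0.00565), and PRMT7 at -0.21 (SE 0.06, edgeR adjusted p = 0.00843).

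**Figure D4:**
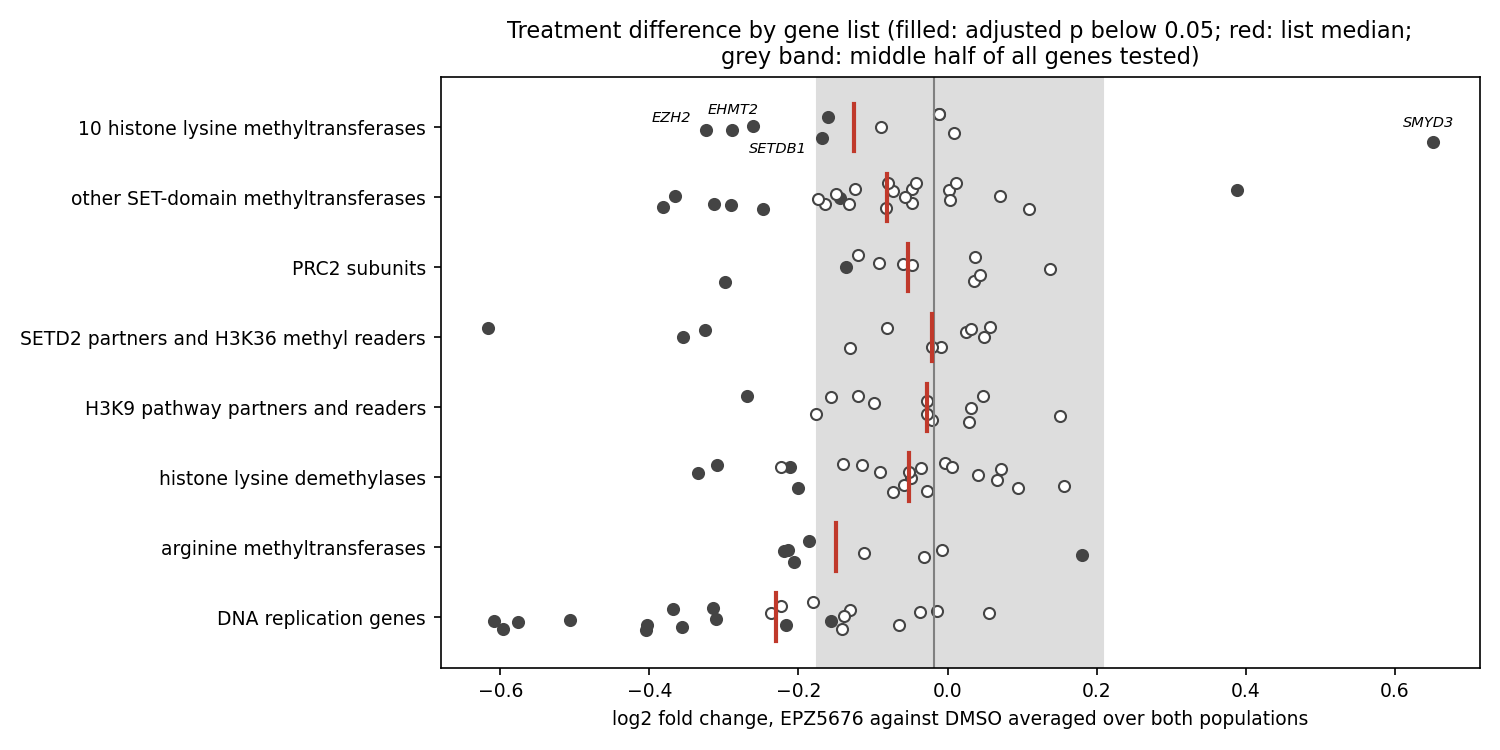
Averaged log2 fold change of EPZ5676 against DMSO (x axis) for the tested genes of each list (rows), filled where the adjusted p was below 0.05, with the list median in red and the interquartile range of all genes as a grey band from -0.17 to 0.21. The 10 genes have a median of -0.13, with SMYD3 alone to the right of the band, and the medians of the 8 lists drawn lie between -0.23 and -0.02.

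For the 6 genes called in the averaged effect, the transcripts with the most similar profile were looked up among 10012 others whose log2 CPM averaged 3 or more. Likeness was the root mean square difference of log2 CPM over the 12 libraries after each gene was centred on its own mean. The nearest to EZH2 was RBBP4, at 0.036, where the median gene was at 0.21, followed by MTA3 and RPA1. The nearest to EHMT2 was SETDB1, at 0.037, followed by DNMT1 and CDC42BPG, and SETDB1 had GPI, EHMT2 and DNMT1 as its nearest. NSD2 was nearest to DSP, ATXN7 and ZNF106, and EHMT1 to GTF3C2, SON and CTNND1. The nearest to SMYD3 were CPVL, MIR22HG and EPS8, at a larger distance of 0.12 to 0.14, where the median gene was at 0.40. SMYD3 also varied most, with an SD of 0.38 in log2 CPM over the 12 libraries, against 0.12 to 0.20 for the other called genes. The distance was not scaled to this spread. Profiles of genes that change little are close to many others, so these distances are a description of the 12 libraries.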

How the data were processed

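Per the submitters' processing notes, reads were handled with Trim Galore and STAR on genome build hg19, without versions. Counter, strand setting and annotation: not given in the sources used here. Raw counts were what the authors deposited: the table has whole numbers per gene, with no normalization. Identifiers were matched without version to symbols, which 51959 of 57783 had.

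The counts were fitted with edgeR 4.0.16 in R 4.3.3: filterByExpr by group, TMM factors (0.975 to 1.021), and 1 quasi-likelihood fit of all 12 libraries with a term per group. Standard errors were the fold change divided by the root of F. Log2 CPM used a prior count of 2. The common biological coefficient of variation was 9.6%. The code was tested on simulated data. Intervals assume these libraries' spread, and p-values measure only the spread between these samples.

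Over 12354 genes, deviations from group means of same-numbered libraries in different groups had correlations of 0.17 to 0.65 in all 18 pairs. Different-numbered libraries had -0.66 to 0.22 in 36 pairs, so same-numbered libraries tended to vary together. The main fit has no term for the number. It treats all 12 libraries as independent, including the ALDH1+ and ALDH1- libraries of the same number that the averaged effect pools. The block fit is an alternative, as are RLE scaling, unscaled totals, other filters, DESeq2 1.42.0, limma-voom (limma 3.58.1), fits of the compared groups alone and leaving out each library. Leaving out all libraries numbered 3 or the 2 deepest was chosen after seeing the data, as was applying the alternatives to DOT1L.

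The genes, lists and rules were chosen with earlier results of these data known. All 10 genes and DOT1L are named, and from each list at most 4 genes with the smallest p in the averaged effect. For each called gene the 3 most similar profiles are named. Promoter windows are RefSeq's on GRCh38.p14.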

Additional observations from a re-analysis of the deposited data

How the results depend on the processing

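SMYD3, EZH2, EHMT2, SETDB1 and NSD2 were called in all 21 alternatives to the averaged effect. In ALDH1+ cells the 10 genes gave 2 calls with only the groups compared (25.9% of all genes) and 2 without the 2 most deeply sequenced libraries (16%, or 2644 genes). Leaving out single libraries gave 2 to 4 calls there, with 22.8% to 32.8% of all genes, and 2 without EPZ5676 ALDH1+ replicate 1 (23.8%). The replicate block moved the calls among the 10 from 4 to 6 in ALDH1- cells, where all genes went from 22.6% to 32.2%, and from 0 to 1 between the populations in DMSO, where all genes went from 0% to 8.48% (1384 genes). Under EPZ5676 it gave 75 genes.

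With no filter, 33418 genes were tested and gave 37 calls for the interaction, 235 between the populations under EPZ5676 and 948 in DMSO, the last with 1 of the 10 (2.84% of all). DESeq2 gave 25 under EPZ5676 and 283 in DMSO. Under EPZ5676 all genes gave 5 with only the groups compared, 61 without all libraries numbered 3, 0 without the 2 deepest, and 0 to 21 without single libraries, which gave 0 to 1 in DMSO. The causes were not tested.

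The log2 values that changed sign were small and none was called. With unscaled totals they were 0.009 for NSD1 and 0.01 for NSD3 averaged, and -0.016 for SETDB1 between populations under EPZ5676. With limma-voom SMYD3 between populations in DMSO was 0.002. Without all libraries numbered 3 they were -0.024 for NSD1 and -0.061 for NSD3 in ALDH1+, -0.024 for EZH1 averaged, -0.123, -0.112 and -0.025 for the interactions of SETD2, NSD2 and EHMT1, and -0.021 for SETDB1 under EPZ5676. Without the 2 deepest they were -0.018 for EZH1 in ALDH1+, -0.046 for EZH1 averaged and 0.035 for EHMT1 under EPZ5676.

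Without single libraries the ranges in ALDH1+ were -0.162 to 0.08 for SETD2 and -0.006 to 0.096 for NSD3, and -0.162 to 0.001 for EZH1 in ALDH1-. Averaged they were -0.076 to 0.035 for NSD1, -0.041 to 0.009 for NSD3 and -0.037 to 0.052 for EZH1. The interactions ranged from -0.028 to 0.22 for SETD2, -0.085 to 0.051 for EZH2, -0.001 to 0.071 for SETDB1 and -0.177 to 0.088 for SMYD3. Between populations under EPZ5676 they were -0.085 to 0.004 for NSD3, -0.083 to 0.064 for EZH1, -0.098 to 0.034 for EHMT1, -0.016 to 0.068 for EHMT2 and -0.045 to 0.033 for SETDB1. SMYD3 in DMSO ranged from -0.178 to 0.086. Of 1300 values of the 10 genes under alternatives, 1228 kept sign and side of the threshold.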
